A study of Homo sapiens with 12 samples.

Results

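RCC4 is a human clear cell renal carcinoma line that lacks functional VHL. The comparison described here is that of 6 of the 12 RNA libraries of the study: RCC4 cells with VHL put back (VHL-positive), given either DMSO, the solvent, or 5 µM JQ1, with 3 libraries in each group. The libraries were chosen by their labels alone, and of the 60663 genes in the count table, the 20714 that passed a filter on low counts were tested. The other 6 libraries are RCC4 cells without VHL (VHL-negative) under the same treatments, and they serve below only to show where the response of VHL-positive cells differed. What vector or promoter drives VHL, whether the line is a clone, how long JQ1 was present and whether replicates came from separate cultures are not given in the labels, so the tests may see no more than technical spread. All cells were kept in high glucose medium with serum and geneticin. The protocol also describes knockdown of MYC by short hairpins, which was not analysed here.

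JQ1 binds the bromodomains of the BET proteins, BRD2 and BRD3 among them, which read acetylated lysines on histones and help recruit the elongation factor P-TEFb to promoters and enhancers. Displacing them lowers transcription of genes that lean on strong enhancers, MYC among them in many tumours, and the labels call JQ1 a MYC inhibitor. The VHL protein directs the alpha subunits of hypoxia-inducible factors (HIF) to degradation, and its loss, with constant HIF activity, is the founding lesion of most clear cell renal carcinomas. The study's title concerns MYC, lipid droplets and HILPDA, a droplet protein under HIF control that restrains lipolysis.

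Total counts were 26532213, 26795635 and 32502310 in the DMSO libraries and 29669306, 27208308 and 18468751 in the JQ1 libraries, and values are given in this replicate order throughout. Levels are CPM, counts scaled to a common library size, and changes are log2 fold changes of JQ1 against DMSO. A gene rose or fell only where the Benjamini-Hochberg adjusted p of edgeR's quasi-likelihood test was under 0.05. The standard error (SE) of a change was worked back from that test, as the absolute change over the square root of its F statistic, so it is not separate evidence. Some libraries stand apart. The third JQ1 library lay close to an equal mix of the other 2 (50% of each): over 11072 genes its variance around that mix was 2.18 times sampling noise, against 9.03 times between the other JQ1 libraries, so it may not be an independent sample. DMSO replicate 3 also lay between the other controls, though less closely. Its best mix held 66% of DMSO replicate 1, with a variance of 9.54 times sampling noise against 31.03 times between the others. VHL-negative libraries were not examined in this way. DMSO replicate 2 had the lowest share of the signal recognition particle RNA RN7SL1 (0.25% of counts, against 1.97% and 0.54%). Counts that lead a paragraph are therefore also given without DMSO replicate 2, without JQ1 replicate 3, and without the third JQ1 library of each line (the third JQ1 libraries). As for cell identity, the renal factor PAX8 was present in every library (199 to 655 CPM without scaling factors), as was KRT8 (288 to 447 CPM), while the proximal tubule receptors LRP2 and CUBN were at or near 0 (at most 0.377 and 1.06 CPM). Summed over 16 renal and tumour markers the level was 2870 to 3220 CPM in DMSO libraries and 3040 to 3330 CPM in JQ1 libraries. Markers of other cells were low in both groups: 7 endothelial markers summed to at most 4.11 CPM, 8 leukocyte markers to at most 2.16 CPM, and 7 fibroblast and pericyte markers to at most 30.9 CPM, mostly RGS5. The leukocyte gene CD3E had no count in any DMSO library and was at most 0.0541 CPM under JQ1.

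JQ1 changed 6589 of the 20714 genes (31.8%) in VHL-positive cells: 3167 rose (15.3%) and 3422 fell (16.5%). Falls were the deeper changes. Among genes that moved at least 2-fold, 867 rose (4.19%) and 1771 fell (8.55%), and 178 genes fell by 3 or more on the log2 scale against 20 that rose as far. Genes that rose were the more abundant group in sum. They held 18.1%, 16% and 19.2% of all counts under DMSO and 28.0%, 26.7% and 27.6% under JQ1, whereas genes that fell went from 13.6%, 14.2% and 13.8% to 7.47%, 7.44% and 7.62%. Without DMSO replicate 2, 2766 rose and 2881 fell. Without JQ1 replicate 3, 2439 rose and 2452 fell, and without the third JQ1 libraries 2033 rose and 2127 fell. Scaled by total counts alone (without scaling factors), 2069 rose and 3998 fell, since that scaling moved the median of all genes from log2 -0.03 to -0.14; the count table lists no spike-in RNA, so fewer cells, less RNA per cell and a changed make-up of the RNA cannot be told apart.

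**Figure D1:**
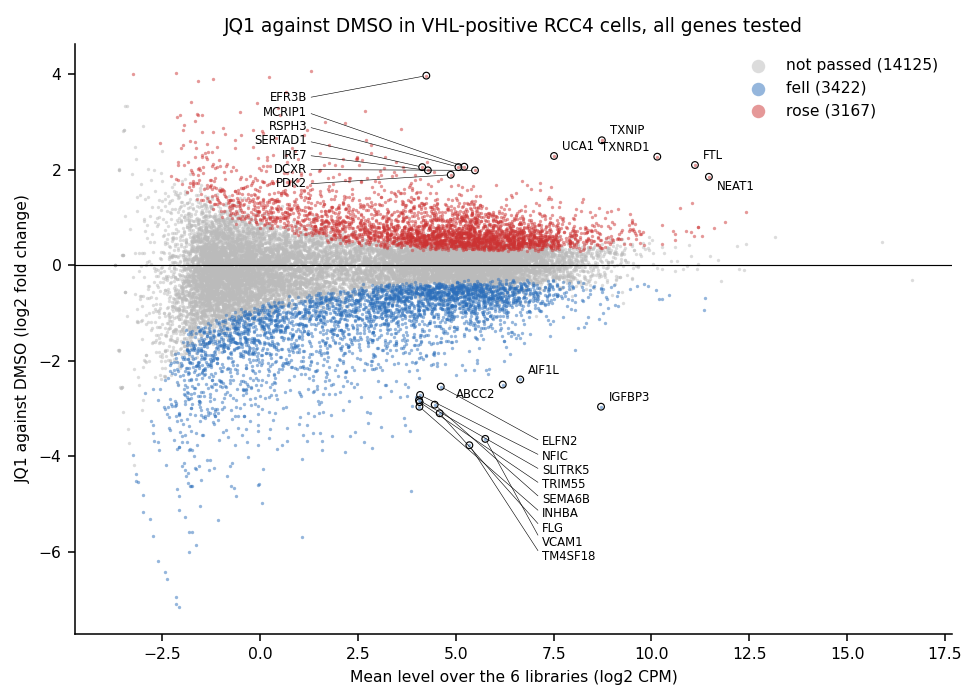
Each point is 1 of the 20714 genes tested in VHL-positive cells, with its mean level over the 6 libraries (log2 CPM) on the x axis and the log2 fold change of JQ1 against DMSO on the y axis; red points rose (3167), blue points fell (3422) and grey points did not pass. Circles and names mark the 12 largest rises and 12 largest falls among well expressed genes, from TM4SF18 at -3.77 to EFR3B at 3.97.

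The targeted genes come first. VHL, the tumour suppressor put back into these cells, was at 67.3, 64.6 and 78.9 CPM under DMSO and 219.7, 196 and 221 CPM under JQ1, and all 3 JQ1 libraries lay above all 3 DMSO libraries (log2 change 1.59, SE 0.123, adjusted p = 3.48e-07). The VHL-negative cells had 24.9, 28.2 and 26.2 CPM under DMSO, below every VHL-positive library. Reads from the introduced copy and from the endogenous gene were counted together. MYC, a transcription factor of growth, measured 125, 221 and 167 CPM under DMSO and 148, 183 and 153 CPM under JQ1, with overlapping groups (log2 -0.09, adjusted p = 0.795). HILPDA was low, at 6.43, 6.45 and 5.96 CPM under DMSO and 8.01, 8.18 and 7.58 CPM under JQ1. The HILPDA change missed the threshold (log2 0.34, adjusted p = 0.0779). Its libraries did not overlap, but neither did those of 9974 of the 20714 genes tested (48.2%, both directions together).

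In what follows, where levels of both groups are printed for a gene that rose or fell, its JQ1 libraries lay wholly above or below all 3 DMSO libraries unless an overlap is stated. Genes that enter only the counts of a list may overlap. Genes of the BET and P-TEFb machinery moved in both directions. BRD2, itself a BET protein, was at 133, 215 and 206 CPM under DMSO and 367, 385 and 398 CPM under JQ1, and rose in every JQ1 library (log2 change 1.05, SE 0.182, adjusted p = 0.000412). HEXIM1, which holds P-TEFb in an inactive complex, was at 99.5, 75.3 and 98.5 CPM under DMSO and 226, 208 and 219.8 CPM under JQ1 (log2 change 1.26, SE 0.127, adjusted p = 3.66e-06), again with no overlap. SERTAD1, a cell cycle regulator that the list also holds, showed its largest rise, from 8.33, 7.95 and 9.63 to 40.5, 32.5 and 34.5 CPM (log2 2.05, adjusted p = 3.68e-06). BRD3 measured 32.7, 29.3 and 34.3 CPM under DMSO and 35.8, 39.2 and 36.2 CPM under JQ1, and its change did not pass (log2 0.21, adjusted p = 0.282). In all, 4 of 19 (21.1%) genes tested of this list rose, SERTAD1 included, and 3 of 19 (15.8%) fell, close to the shares of all genes. The fourth rise was AFF4, a scaffold of the super elongation complex. The falls included ELL2 and NELFA, both factors of elongation control, and none of the 3 falls passed without JQ1 replicate 1, without JQ1 replicate 3 or without the third JQ1 libraries (falls numbered 0 there, 1 without DMSO replicate 1 and 2 without DMSO replicate 2).

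Among well expressed genes, meaning 4 log2 CPM or more on average, the largest rise was that of EFR3B, which encodes a membrane protein that anchors a phosphatidylinositol kinase. It went from 2.59, 4.64 and 7.65 to 78.8, 75.1 and 80.8 CPM (log2 change 3.97, SE 0.399, adjusted p = 3.66e-06), with the JQ1 libraries tight and far above DMSO libraries that differed among themselves. TXNIP, which binds thioredoxin and curbs glucose uptake, was at 189, 101 and 243 CPM under DMSO and 1189.5, 1043 and 1031 CPM under JQ1 (log2 change 2.61, SE 0.261, adjusted p = 3.43e-06). Its lowest control was DMSO replicate 2. UCA1, a long noncoding RNA first described in urothelial cancer, was at 76.4, 61.6 and 117 CPM under DMSO and 332, 537 and 374 CPM under JQ1 (log2 2.29), with the highest level in JQ1 replicate 2. IRF7, the interferon response factor, was at 8.22, 8.97 and 12.2 CPM under DMSO and 39, 37.3 and 40.6 CPM under JQ1 (log2 1.99, adjusted p = 2.42e-07). DCXR, a dicarbonyl and xylulose reductase abundant in kidney, went from 20.9, 22.2 and 24.7 to 87.7, 91.3 and 89 CPM (log2 1.98). These last rises were alike in both size and narrow groups. MCRIP1, a regulator of ERK-dependent repression (log2 2.06), and RSPH3, a radial spoke protein of cilia (log2 2.05), rose as far. PDK2, a kinase that shuts off pyruvate dehydrogenase, rose by log2 1.89, but 38.6% of its exons lie over those of other genes. The nuclear RNA NEAT1 was at 1597, 773 and 2359 CPM under DMSO and 4721, 6393 and 5927 CPM under JQ1 (log2 1.85, adjusted p = 0.00749), with DMSO replicate 2 the lowest.

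The largest fall among well expressed genes was that of TM4SF18, a membrane protein of the L6 family (chromosome 3, 149318498 to 149334414 on GRCh38). It was at 139, 181 and 133 CPM under DMSO and 12.7, 10.3 and 10.1 CPM under JQ1 (log2 change -3.77, SE 0.167, adjusted p = 1.27e-09). VCAM1, an adhesion molecule for leukocytes, was at 151, 320.2 and 124 CPM under DMSO and 16.7, 16.5 and 14.6 CPM under JQ1 (log2 change -3.63, SE 0.285, adjusted p = 3.98e-07), and its highest control was DMSO replicate 2. FLG, the filaggrin of cornified epithelium, was at 70.9, 67.7 and 72.4 CPM under DMSO and 7.28, 9.68 and 7.63 CPM under JQ1 (log2 change -3.10, SE 0.159, adjusted p = 3.93e-09). Both groups of FLG values were narrow. The secreted proteins INHBA, a subunit of activin, and IGFBP3, a carrier of insulin-like growth factors, fell equally far. INHBA was at 46.2, 64.6 and 34.7 CPM under DMSO and 5.57, 8.63 and 4.3 CPM under JQ1 (log2 -2.96). IGFBP3 was at 1092, 1122 and 1309 CPM under DMSO and 163, 134 and 156 CPM under JQ1 (log2 -2.96). SEMA6B, a guidance ligand, fell from 57.8, 64.2 and 58.7 to 7.46, 7.66 and 8.84 CPM (log2 -2.92). SLITRK5 (log2 -2.83) and ELFN2 (log2 -2.54), membrane proteins known from neurons, and TRIM55, a muscle ubiquitin ligase (log2 -2.87), fell as well. NFIC, a transcription factor of the nuclear factor I family, was at 41.7, 52.3 and 37.2 CPM under DMSO and 5.24, 7.82 and 6.95 CPM under JQ1 (log2 -2.72, adjusted p = 3.45e-05). ABCC2, an apical efflux pump for conjugates, was nearly constant within each group, at 175, 172 and 176 CPM under DMSO and 31.1, 30.6 and 30.9 CPM under JQ1 (log2 change -2.50, SE 0.135, adjusted p = 6.37e-09). AIF1L, an actin-binding protein of kidney cells, was at 249, 210.3 and 229.9 CPM under DMSO and 42.6, 45.9 and 42.8 CPM under JQ1 (log2 -2.39).

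**Figure D2:**
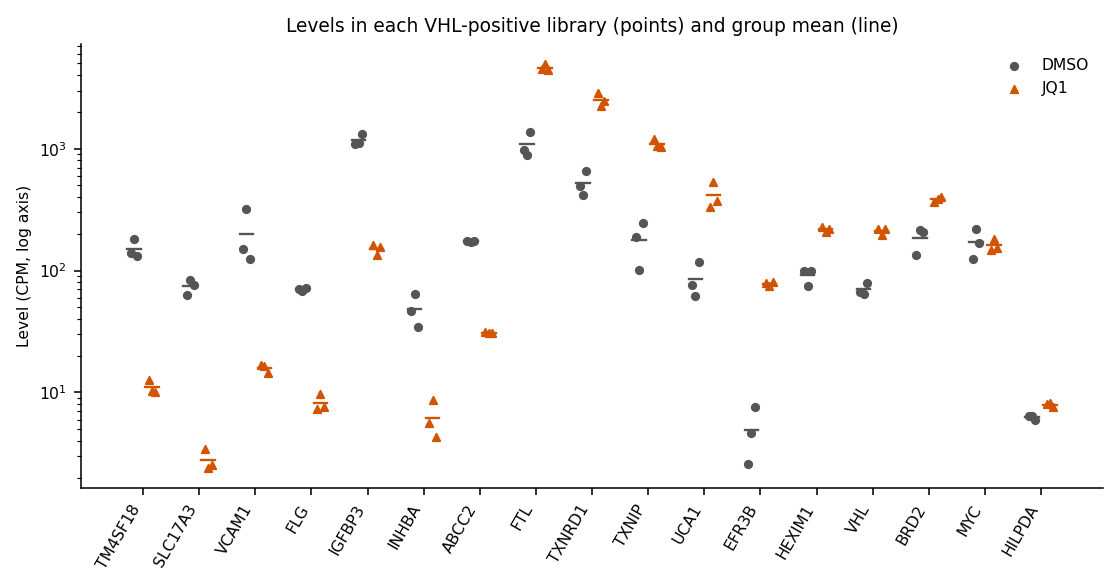
Level of selected genes in each VHL-positive library (CPM, log axis), with DMSO as grey circles and JQ1 as orange triangles in replicate order, and the group mean as a line. The 7 genes on the left fell (VCAM1 from 124 to 320 CPM down to 14.6 to 16.7 CPM), FTL to BRD2 rose, MYC overlaps, and HILPDA did not pass.

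On the CPM scale, the largest movements were in a few abundant genes. THBS1, the matrix protein thrombospondin, was at 3382, 3677 and 3747 CPM under DMSO and 1898, 1882 and 1859 CPM under JQ1 (log2 -0.94, adjusted p = 0.000249). VCAN, a matrix proteoglycan, was at 1698, 1882 and 1643 CPM under DMSO and 1141, 1154 and 1088 CPM under JQ1 (log2 -0.63). CAV1, the coat protein of caveolae, was at 642, 674 and 718 CPM under DMSO and 278, 303 and 304 CPM under JQ1 (log2 -1.20). All 3 fell with narrow groups. Fibronectin (FN1, 2764, 4032 and 3385 CPM under DMSO) fell by less (log2 -0.68, adjusted p = 0.00685; 0.0544 without the third JQ1 libraries). The fall of the tubulin gene TUBB (log2 -0.72, adjusted p = 0.0373) was lost without DMSO replicate 2 (adjusted p = 0.233), DMSO replicate 3 (adjusted p = 0.073), JQ1 replicate 1 (adjusted p = 0.0846), JQ1 replicate 2 (adjusted p = 0.123), JQ1 replicate 3 (adjusted p = 0.106) and the third JQ1 libraries (adjusted p = 0.135). That of the matrix protein TGFBI (log2 -0.70, adjusted p = 0.0351) was lost without any 1 of the 6 libraries, with adjusted p up to 0.124. Upward, SPP1, osteopontin, was at 1095, 1060.4 and 1224 CPM under DMSO and 2778, 2549 and 2403 CPM under JQ1 (log2 1.19). EEF2, the translocase of translation, was at 1919, 2477 and 2740.2 CPM under DMSO and 4095, 4048 and 4071 CPM under JQ1 (log2 0.78). The nuclear RNA MALAT1 was at 6522, 2085 and 3193 CPM under DMSO and 8459.7, 9135 and 8029 CPM under JQ1 (log2 1.12, adjusted p = 0.0196), and this call was lost without DMSO replicate 2 (adjusted p = 0.0646), DMSO replicate 3 (adjusted p = 0.0732), JQ1 replicate 2 (adjusted p = 0.0504) and the third JQ1 libraries (adjusted p = 0.0526).

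Antioxidant genes of the NRF2 pathway included 2 of the largest rises. NRF2 (NFE2L2) is held by KEAP1 and, once free, drives genes with antioxidant response elements. TXNRD1, the cytosolic thioredoxin reductase, was at 496, 419 and 655 CPM under DMSO and 2872, 2228 and 2470.5 CPM under JQ1 (log2 change 2.27, SE 0.213, adjusted p = 1.95e-06). FTL, the light chain of ferritin, was at 983, 883 and 1381 CPM under DMSO and 4488, 4942 and 4450.4 CPM under JQ1 (log2 change 2.10, SE 0.268, adjusted p = 3.1e-05); processed copies of FTL lie elsewhere in the genome, so reads shared with them make its level uncertain. GCLC, which catalyses the first step of glutathione synthesis, was at 30, 32.2 and 32.5 CPM under DMSO and 73.4, 58.3 and 67 CPM under JQ1 (log2 1.07). SQSTM1, an autophagy receptor that also binds KEAP1, was at 387, 334 and 417 CPM under DMSO and 901, 791 and 862 CPM under JQ1 (log2 1.17). NQO1 and GCLM also rose. Yet KEAP1 itself, HMOX1 and the cystine carrier SLC7A11 fell. SLC7A11 was at 36.1, 48.6 and 50 CPM under DMSO and 19.7, 15.2 and 19.1 CPM under JQ1 (log2 -1.32, adjusted p = 0.000497). HMOX1, heme oxygenase, was at 62.6, 112 and 83 CPM under DMSO and 58.1, 52.2 and 53 CPM under JQ1 (log2 -0.66, adjusted p = 0.0176), a call lost without DMSO replicate 2 (adjusted p = 0.132), JQ1 replicate 2 (adjusted p = 0.0709), JQ1 replicate 3 (adjusted p = 0.0729) and the third JQ1 libraries (adjusted p = 0.0963). Of the 34 genes listed, 32 were tested: 13 of 32 (40.6%) rose and 6 of 32 (18.8%) fell (median log2 0.36, against -0.03 over all genes). Rises numbered 12 without DMSO replicate 2, 11 without JQ1 replicate 3 and 10 without the third JQ1 libraries, and falls 4 without DMSO replicate 2, JQ1 replicate 3 or the third JQ1 libraries. NFE2L2 RNA did not pass (log2 0.18, adjusted p = 0.375).

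Of the promoters of these genes that of TXNRD1 is shown, because TXNRD1 rose most and its start holds the core letters of an antioxidant response element, TGACNNNGC, on both strands. The stretch runs from 250 bases before to 50 bases after the annotated start (RefSeq, GRCh38.p14, chr12:104215529-104215828, plus strand), and capitals mark the matches, which begin 99 and 8 bases before the start.
TXNRD1: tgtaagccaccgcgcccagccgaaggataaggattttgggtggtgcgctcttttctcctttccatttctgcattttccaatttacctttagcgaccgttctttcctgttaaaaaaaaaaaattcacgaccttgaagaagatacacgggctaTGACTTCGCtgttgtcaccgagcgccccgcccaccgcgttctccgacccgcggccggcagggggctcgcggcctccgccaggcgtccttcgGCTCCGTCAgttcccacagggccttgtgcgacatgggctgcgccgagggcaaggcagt
Over all 10949 protein-coding genes tested that have such a promoter in the table (80.6% of 13585), 14.9% held TGACNNNGC on either strand. The share was 15.2% of genes that rose and 13.5% of genes that fell, so the motif was about as common in either group as in all genes. A match describes letters, not binding.

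TXNIP belongs to the alpha-arrestins, adaptors that bring ubiquitin ligases to membrane proteins. Of the tested members 4 of 5 (80%) rose (median log2 0.84), against 15.3% of all genes tested, the same number in every fit that left out 1 library. TXNIP itself is 1 of the 4, and the list was chosen with earlier results of these data known, so its share is partly set by that choice. ARRDC4, the closest relative of TXNIP, was at 8.84, 8.3 and 8.52 CPM under DMSO and 21.8, 18.6 and 18.9 CPM under JQ1 (log2 change 1.21, SE 0.154, adjusted p = 2.96e-05). ARRDC1 was at 18.1, 22.3 and 24.3 CPM under DMSO and 36.9, 40.7 and 38.2 CPM under JQ1 (log2 0.84). ARRDC3 was at 66, 68 and 83.5 CPM under DMSO and 97.4, 121 and 119 CPM under JQ1 (log2 0.63). Every JQ1 library of these genes lay above every DMSO library. The promoter of ARRDC4 is shown beside its rise since it holds an E-box, CACGTG, the letters read by MYC, MAX, MXD and other factors (chr15:97960453-97960752, plus strand, GRCh38.p14, capitals for the E-box, 210 bases before the start).
ARRDC4: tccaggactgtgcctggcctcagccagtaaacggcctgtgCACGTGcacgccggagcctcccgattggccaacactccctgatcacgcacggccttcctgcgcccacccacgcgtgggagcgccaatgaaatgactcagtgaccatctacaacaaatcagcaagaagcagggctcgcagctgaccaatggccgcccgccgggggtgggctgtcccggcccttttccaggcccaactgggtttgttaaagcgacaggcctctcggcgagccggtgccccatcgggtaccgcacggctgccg
Among all promoters 9.75% held CACGTG, against 8.9% of genes that rose and 11.1% of genes that fell.

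MYC works as a dimer with MAX, and the MXD proteins compete for MAX and repress the same sites. While MYC did not pass, 5 of 11 (45.5%) tested genes of this network rose and none fell (2 fell when only the 6 VHL-positive libraries were fitted), and all 5 rises were in MAX partners other than MYC: MXD1, MXD3, MXD4, MXI1 and MGA. MXD1 was at 9.75, 8.58 and 11.7 CPM under DMSO and 24.4, 23 and 23.1 CPM under JQ1 (log2 change 1.23, SE 0.152, adjusted p = 2.35e-05). MXD4 was at 55.5, 30.4 and 68.6 CPM under DMSO and 125, 122 and 125 CPM under JQ1 (log2 1.26), with its lowest control again in DMSO replicate 2. The other rises were smaller and depended on single libraries. MXD3 rose by log2 0.55, with 40.4% of its exons over those of other genes, and did not pass without JQ1 replicate 1 (adjusted p = 0.0633) and the third JQ1 libraries (adjusted p = 0.0519). MXI1 (log2 0.47) did not pass without DMSO replicate 1 (adjusted p = 0.0725), DMSO replicate 2 (adjusted p = 0.107), JQ1 replicate 1 (adjusted p = 0.0815), JQ1 replicate 2 (adjusted p = 0.0877) and the third JQ1 libraries (adjusted p = 0.0619), and MGA (log2 0.30) without any 1 of the 6 libraries. The count of rises was 3 without DMSO replicate 1, DMSO replicate 2 or JQ1 replicate 2, 2 without JQ1 replicate 1, the third JQ1 libraries or scaling factors and 4 without JQ1 replicate 3.

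Nucleolar and ribosome biogenesis genes are a classic group of MYC targets. The list used here also holds MYC targets with other roles, such as LDHA, ODC1 and EIF4E. Of this list 16 of 39 (41%) fell, 1, LDHA, rose and 22 did not pass (median log2 -0.28, or -0.42 without DMSO replicate 1 and -0.17 without DMSO replicate 2). TCOF1, treacle, a nucleolar factor of ribosomal RNA transcription, was at 134, 239 and 148 CPM under DMSO and 55.6, 62.2 and 62.2 CPM under JQ1 (log2 change -1.53, SE 0.187, adjusted p = 2.08e-05). PPRC1, a coactivator of nuclear genes for mitochondria, went from 87.5, 152 and 104 to 40.8, 48.6 and 49.3 CPM (log2 -1.31). NME1, a nucleoside diphosphate kinase, was at 62.8, 86.6 and 67.3 CPM under DMSO and 26.1, 30.2 and 28.9 CPM under JQ1 (log2 -1.35, adjusted p = 0.000361). DKC1, the pseudouridine synthase dyskerin, was at 83.4, 108 and 75 CPM under DMSO and 54.1, 46.5 and 51.2 CPM under JQ1 (log2 -0.81). The JQ1 libraries of these 4 genes lay below all controls, but DMSO replicate 2 was the highest control for 36 of 39 genes of the list (92.3%, against 37.2% over all genes tested). Falls numbered 8 without DMSO replicate 2 or JQ1 replicate 2, 10 without JQ1 replicate 3 and 7 without the third JQ1 libraries. CACGTG stood in 13 of the 32 promoters found for this list (40.6%), against 9.75% of all promoters. The list was drawn up as MYC targets, whose sites are E-boxes, so a high share was built into that choice. Among the members that fell, the E-box stood in 6 of 13 promoters (46.2%), near the share of the whole list. The NME1 promoter is printed as the example, with the E-box in capitals just after the start (chr17:51153309-51153608, plus strand, GRCh38.p14).
NME1: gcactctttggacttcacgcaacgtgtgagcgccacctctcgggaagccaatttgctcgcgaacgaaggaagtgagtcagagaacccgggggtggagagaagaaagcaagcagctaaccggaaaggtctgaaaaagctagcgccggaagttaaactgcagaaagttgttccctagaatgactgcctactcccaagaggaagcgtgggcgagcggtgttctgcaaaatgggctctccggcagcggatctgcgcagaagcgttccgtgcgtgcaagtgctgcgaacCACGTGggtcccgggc

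Cell cycle genes fell more often than genes at large, and here the controls differed among themselves, with DMSO replicate 2 the highest. MKI67, the proliferation antigen Ki-67, was at 466, 859.5 and 488 CPM under DMSO and 248, 301 and 288 CPM under JQ1 (log2 -1.12, adjusted p = 0.00276). FOXM1, a transcription factor of G2/M genes, was at 119.9, 193 and 141 CPM under DMSO and 45, 62.7 and 59.5 CPM under JQ1 (log2 -1.44). KIF14, a mitotic kinesin (log2 -0.79), CDC25A, a phosphatase that activates cyclin-dependent kinases (log2 -1.17), and PLK1, a mitotic kinase (log2 -0.98), also fell. Of the mitosis genes 14 of 38 (36.8%) fell and none rose (1 rose without DMSO replicate 2), with a median of log2 -0.44, or -0.20 without DMSO replicate 2. DMSO replicate 2 was the highest control for 36 of 38 of them. The count of falls was 22 without DMSO replicate 1, 6 without DMSO replicate 2, JQ1 replicate 2 or the third JQ1 libraries, 9 without JQ1 replicate 3 and 24 without scaling factors, and 24 when only coding genes were fitted, so it changed with the libraries kept. Replication genes gave a similar picture, and DMSO replicate 1 lay below JQ1 replicate 1 in the median of the list. E2F2, an activating E2F factor, was at 8.37, 19 and 11.3 CPM under DMSO and 1.78, 1.74 and 1.84 CPM under JQ1 (log2 -2.85, adjusted p = 1.5e-06). MCM5, part of the replicative helicase, was at 87.8, 182 and 130.2 CPM under DMSO and 46.6, 40.1 and 46.5 CPM under JQ1 (log2 -1.59). The licensing factor CDT1 was at 31.2, 53.9 and 32.5 CPM under DMSO and 16.2, 14.9 and 15.8 CPM under JQ1 (log2 -1.32). E2F8 (log2 -1.98) and E2F3 (log2 -0.97) fell as well. Of the replication list 20 of 44 (45.5%) fell and 1, TK1, rose, or 2 without DMSO replicate 2 (median log2 -0.49, or -0.24 without DMSO replicate 2). DMSO replicate 2 was the highest control for 43 of 44, and falls numbered 15 without DMSO replicate 2, 18 without JQ1 replicate 3, 17 without the third JQ1 libraries and 31 without scaling factors. Among G1 regulators, CDKN1A (p21), an inhibitor of cyclin-dependent kinases, was at 113, 92.5 and 117 CPM under DMSO and 276, 289 and 274 CPM under JQ1 (log2 1.38, adjusted p = 2.68e-06), and CDKN2D (p19) rose from 1.97, 2.52 and 2.05 to 6.7, 6.56 and 5.85 CPM (log2 1.55). CDK6, the G1 kinase, was at 484, 535 and 432 CPM under DMSO and 224, 219.9 and 237 CPM under JQ1 (log2 -1.09). CCND2, its cyclin partner, was at 116, 95.4 and 101 CPM under DMSO and 52.5, 59.7 and 53.8 CPM under JQ1 (log2 -0.91). Of the G1 list 2 of 13 (15.4%) rose and 2 of 13 (15.4%) fell, or 5 fell without DMSO replicate 1, without scaling factors or among coding genes alone, and 4 when only the 6 VHL-positive libraries were fitted.

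**Figure D3:**
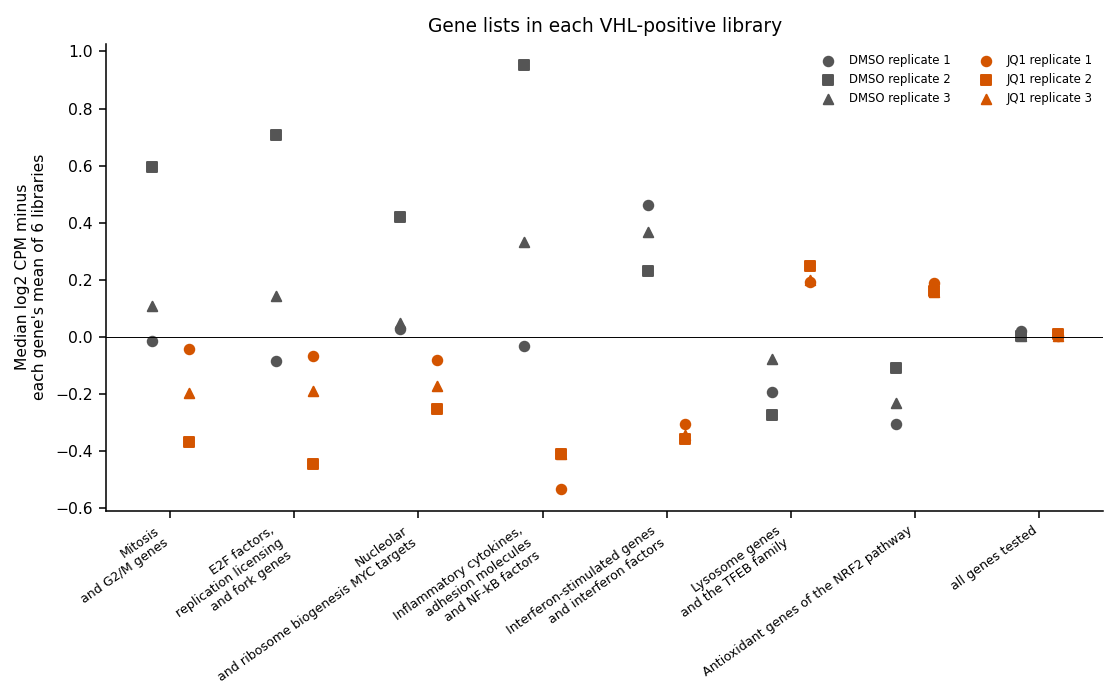
For 7 gene lists and for all genes tested, the median over genes of log2 CPM minus each gene's own mean over the 6 VHL-positive libraries, 1 symbol per library (grey DMSO, orange JQ1; circle, square and triangle for replicates 1 to 3). For the mitosis list the DMSO libraries were at -0.01, 0.60 and 0.11 and the JQ1 libraries at -0.04, -0.37 and -0.20, so the first DMSO and first JQ1 libraries nearly met, while the interferon list was at 0.46, 0.23 and 0.37 against -0.30, -0.36 and -0.34.

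Inflammatory genes made up one of the lists with the largest share of falls. NF-kB is the shared transcription factor of many cytokines and adhesion molecules, and 21 of 32 (65.6%) genes of this list fell, 2 rose (IL18 and NFKBIZ) and 9 did not pass (median log2 -1.0). Besides VCAM1 the cytokine LIF was at 144, 144 and 152 CPM under DMSO and 70.5, 73.8 and 69.6 CPM under JQ1 (log2 change -1.04, SE 0.108, adjusted p = 4.95e-06). NFKB1, the p105/p50 subunit, was at 45.9, 65.6 and 51.4 CPM under DMSO and 27.4, 25.6 and 28.4 CPM under JQ1 (log2 -1.0). TNFRSF9, a costimulatory receptor, was at 4.09, 15.6 and 7.53 CPM under DMSO and 1.13, 1.01 and 1.09 CPM under JQ1 (log2 -3.06). IL7R, an interleukin receptor, was at 1.35, 1.38 and 1.32 CPM under DMSO and 0.0728, 0.405 and 0.115 CPM under JQ1 (log2 -2.72). Among those that fell were also IL6, CCL2, CXCL1, ICAM1, NFKB2 and RELB. RELA and REL, other subunits of NF-kB, did not pass. DMSO replicate 2 was the highest control for 27 of 32 members, and without it 17 fell; 18 fell without JQ1 replicate 3 and 18 without the third JQ1 libraries.

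Interferon-stimulated genes fell as often, without such a lean on 1 control. Of the list 28 of 43 (65.1%) fell and 4 of 43 (9.3%) rose (median log2 -0.73). IFI44L was at 17.4, 19.4 and 14.3 CPM under DMSO and 0.837, 1.22 and 1.38 CPM under JQ1 (log2 change -3.92, SE 0.287, adjusted p = 1.95e-07). GBP1, a guanylate-binding protein of the interferon gamma response, was at 14.8, 23 and 16 CPM under DMSO and 1.49, 1.94 and 1.32 CPM under JQ1 (log2 -3.48). GBP3 was at 35.3, 51.3 and 40.1 CPM under DMSO and 12.1, 11.9 and 10 CPM under JQ1 (log2 -1.89). TRIM22, an antiviral ubiquitin ligase, was at 44.1, 31.1 and 40.6 CPM under DMSO and 4.48, 3.81 and 4.36 CPM under JQ1 (log2 -3.19, adjusted p = 9.84e-09). OAS1 to OAS3, IFIT1 to IFIT3, MX1, IRF1 and the RNA sensors RIGI and IFIH1 were also among the falls. The 4 rises were IRF7, described above, ISG15, IFI6 and SAMHD1. Falls numbered 28 without DMSO replicate 2, 23 without JQ1 replicate 3 and 22 without the third JQ1 libraries, and rises 2 without DMSO replicate 2, JQ1 replicate 1, JQ1 replicate 3, the third JQ1 libraries or scaling factors. The related machinery of MHC class I split: 5 of 20 genes rose and 5 fell. All 5 rises were in the molecules that present peptide, among them HLA-B, HLA-C, HLA-E and their partner B2M, and all 5 falls were in genes that make or load it. HLA-E was at 108, 88.2 and 111 CPM under DMSO and 190.4, 181 and 179 CPM under JQ1 (log2 0.84, adjusted p = 0.000291). PSMB8, a subunit of the immunoproteasome, was at 84.5, 68.4 and 78.7 CPM under DMSO and 37.6, 33.6 and 31.7 CPM under JQ1 (log2 -1.17, adjusted p = 0.000176), PSMB10 fell too (log2 -1.03; 34.8% of its exons overlap other genes). ERAP2, which trims peptides, was at 13.9, 16.5 and 13.6 CPM under DMSO and 4.55, 5.22 and 3.27 CPM under JQ1 (log2 -1.74). The other falls were TAPBP and TAPBPL, which load peptide. HLA genes share reads with their near copies, so their levels are uncertain; rises numbered 3 without DMSO replicate 2, JQ1 replicate 1, the third JQ1 libraries or scaling factors and 4 without JQ1 replicate 3.

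Markers of the renal lineage fell more often than genes at large. Of the list 12 of 26 (46.2%) fell and 2 rose (median log2 -0.62), and falls numbered 12 without DMSO replicate 2, 11 without JQ1 replicate 3 and 10 without the third JQ1 libraries. SLC17A3, an organic anion transporter of the proximal tubule, was at 63.4, 84.3 and 75.6 CPM under DMSO and 3.42, 2.39 and 2.52 CPM under JQ1 (log2 change -4.73, SE 0.187, adjusted p = 5.03e-10). CDH16, the kidney cadherin, was at 164, 97.4 and 173 CPM under DMSO and 48.5, 39.8 and 43.2 CPM under JQ1 (log2 -1.72, adjusted p = 7.78e-06), with its lowest control in DMSO replicate 2. CDH6, another cadherin of the developing tubule, was at 655, 400.0 and 410.5 CPM under DMSO and 203, 208 and 187 CPM under JQ1 (log2 -1.29). EPCAM, an epithelial adhesion molecule, was at 24.8, 27 and 19.7 CPM under DMSO and 11.4, 10.2 and 10.3 CPM under JQ1 (log2 -1.16). The transcription factors HNF4A, LHX1 and TFCP2L1 fell, whereas PAX8 rose. SPP1 was the other rise. The levels of many adult tubule genes were low from the start, as given above for LRP2 and CUBN.

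Some of the deepest falls were neighbours on a chromosome, seen after the values were known. SLC17A1, SLC17A3 and SLC17A2 lie side by side on chromosome 6 (from 25782897 to 25930726 on GRCh38), and all fell. SLC17A1 was at 4.57, 3.78 and 4.28 CPM under DMSO and 0.291, 0.121 and 0.0574 CPM under JQ1 (log2 -4.59, adjusted p = 2.65e-06). SLC17A2 was at 1.46, 1.69 and 0.903 CPM under DMSO and 0, 0.162 and 0.172 CPM under JQ1 (log2 -3.65, adjusted p = 0.000219). TRIM38, the next coding gene tested, fell by far less, from 125, 101 and 97.1 to 64.2, 66 and 59.6 CPM (log2 -0.77). On chromosome 3, TM4SF18, TM4SF1 and TM4SF4 lie between 149318498 and 149503281, and all fell too, as did their flanking genes CP and WWTR1, of which values are given below. TM4SF1, a surface antigen of many carcinomas, was at 133, 215 and 126 CPM under DMSO and 69.6, 74.4 and 71 CPM under JQ1 (log2 -1.14). TM4SF4 was at 8.95, 9.13 and 10.1 CPM under DMSO and 0.582, 1.13 and 0.746 CPM under JQ1 (log2 -3.51). On the joint list with the tetraspanins proper, a separate family, 8 of 21 (38.1%) rose and 6 of 21 (28.6%) fell. All 8 rises were tetraspanins (CD9, CD151 and 6 TSPAN genes). The falls also held a tetraspanin, TSPAN1 (log2 -1.59 in the authors' deposited table), and TM4SF19, so the families did not part cleanly. This split by family was made after the values were seen. Rises numbered 6 without DMSO replicate 2, 5 without DMSO replicate 3, JQ1 replicate 1, JQ1 replicate 3 or scaling factors, 4 without JQ1 replicate 2 and 3 without the third JQ1 libraries. By chromosome, mitochondrial genes left aside, rises made up 13.2 to 18.3% and falls 13.6 to 19.5% of genes tested, near the shares of all genes.

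Integrins and cadherins, which hold cells to matrix and to each other, moved both ways (5 of 19 (26.3%) rose, 4 of 19 (21.1%) fell). ITGB6, the epithelial integrin chain that activates TGF-beta, was at 46.6, 24.4 and 36.6 CPM under DMSO and 2.66, 3.44 and 2.93 CPM under JQ1 (log2 change -3.58, SE 0.216, adjusted p = 1.83e-08). E-cadherin (CDH1) was at 7.63, 3.23 and 8.46 CPM under DMSO and 0.8, 1.13 and 1.15 CPM under JQ1 (log2 -2.66). N-cadherin (CDH2) rose, and ITGB3 did too, from 268, 316 and 256 to 539.5, 456 and 484 CPM (log2 0.82), but 51.6% of its exons lie over those of other genes. Matrix genes fell in 14 of 36 (38.9%) cases and rose in 5 of 36 (13.9%) (median log2 -0.37). LOX, which crosslinks collagen, was at 37, 43.1 and 43 CPM under DMSO and 12.6, 12.3 and 9.87 CPM under JQ1 (log2 change -1.82, SE 0.147, adjusted p = 5.18e-07). PLAU, urokinase, was at 23.4, 40.3 and 21.3 CPM under DMSO and 9.39, 8.18 and 8.95 CPM under JQ1 (log2 -1.68). MMP7, matrilysin, was at 30, 12.2 and 24.4 CPM under DMSO and 8.11, 8.79 and 8.21 CPM under JQ1 (log2 -1.41). The 5 rises were LOXL2, FBN1, COL12A1 and both chains of collagen IV, COL4A1 and COL4A2. Falls of matrix genes numbered 10 without DMSO replicate 2, 9 without JQ1 replicate 1, 8 without JQ1 replicate 3 and 7 without the third JQ1 libraries, and rises of matrix genes 4 without DMSO replicate 2, 3 without JQ1 replicate 2, JQ1 replicate 3 or the third JQ1 libraries and 2 without scaling factors; rises of integrins and cadherins numbered 4 without DMSO replicate 2 or JQ1 replicate 3 and 3 without DMSO replicate 3, JQ1 replicate 1, the third JQ1 libraries or scaling factors.

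In the TGF-beta family the ligands INHBA, INHBE, TGFB1, TGFB2 and TGFB3 fell and INHBB, BMP2, BMP4 and GDF11 rose. TGFB2 was at 10.3, 11.1 and 13.8 CPM under DMSO and 2.18, 2.31 and 1.78 CPM under JQ1 (log2 change -2.48, SE 0.261, adjusted p = 5.43e-06). LTBP2, a matrix protein related to the latent TGF-beta carriers, was at 15.4, 31 and 16 CPM under DMSO and 2.58, 2.47 and 2.24 CPM under JQ1 (log2 -3.08). GDF11 was at 27.3, 25.6 and 31.6 CPM under DMSO and 62.3, 74.8 and 67.5 CPM under JQ1 (log2 1.27, adjusted p = 3.82e-06). With receptors and antagonists 10 of 33 (30.3%) rose and 11 of 33 (33.3%) fell, a balance close to 0 in the median (log2 0.04). Falls numbered 11 without DMSO replicate 2, 7 without JQ1 replicate 1, 8 without JQ1 replicate 3 and 6 without the third JQ1 libraries, and rises 8 without DMSO replicate 2, 6 without DMSO replicate 3 and 7 without JQ1 replicate 3 or the third JQ1 libraries. Of the insulin-like growth factor axis 4 of 13 (30.8%) fell, IGFBP3, IGFBP5, PAPPA and IRS1, and 1 rose, IRS2 (2 without DMSO replicate 1 and 2 by DESeq2). PAPPA, a protease that cleaves binding proteins, was at 11.1, 10.1 and 9.66 CPM under DMSO and 3.49, 4.21 and 3.73 CPM under JQ1 (log2 -1.43). IRS2, an adaptor of the insulin receptor, was at 20.2, 16 and 25.1 CPM under DMSO and 30, 42.4 and 36.8 CPM under JQ1 (log2 0.83). The groups of IRS1 overlapped (log2 -0.38, adjusted p = 0.0418), and its call was lost without DMSO replicate 1 (adjusted p = 0.126), DMSO replicate 3 (adjusted p = 0.168), JQ1 replicate 1 (adjusted p = 0.173), JQ1 replicate 3 (adjusted p = 0.187) and the third JQ1 libraries (adjusted p = 0.239).

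YAP and TEAD targets split as well. CCN2, a matricellular growth factor, was at 77, 30.6 and 68.7 CPM under DMSO and 159, 236 and 199 CPM under JQ1 (log2 change 1.75, SE 0.262, adjusted p = 0.000122), with DMSO replicate 2 the lowest, and the YAP partner AMOTL2 rose (log2 0.78). WWTR1, which encodes TAZ, the paralogue of YAP, was at 435, 416 and 417 CPM under DMSO and 277, 265 and 254 CPM under JQ1 (log2 -0.67, adjusted p = 0.000733). CCN5, a relative of CCN2, fell from 6.39, 0.826 and 3.55 to 0.4, 0.526 and 0.0574 CPM (log2 -3.34). Of this list 5 of 18 (27.8%) rose and 6 of 18 (33.3%) fell, and falls numbered 5 without DMSO replicate 2, 3 without DMSO replicate 3, JQ1 replicate 1 or JQ1 replicate 3 and 2 without the third JQ1 libraries. Among immediate early factors JUN was at 122, 100.2 and 154 CPM under DMSO and 206, 250.1 and 248 CPM under JQ1 (log2 0.91). JUND was at 129.7, 119.5 and 146 CPM under DMSO and 267, 341 and 316 CPM under JQ1 (log2 1.22). KLF6 was at 249, 409.8 and 312 CPM under DMSO and 604, 702 and 622 CPM under JQ1 (log2 0.99). IER5, another early response gene, rose from 27.2, 24.8 and 28.1 to 70.4, 61.1 and 68.8 CPM (log2 1.32). FOSL1, the AP-1 subunit Fra-1, moved the other way, at 38.8, 147 and 48.6 CPM under DMSO and 13.4, 18.6 and 15.9 CPM under JQ1 (log2 -2.29, adjusted p = 0.000343), with DMSO replicate 2 far above the other controls. Here 6 of 18 (33.3%) rose and 2, FOSL1 and KLF2, fell (rises: 7 without DMSO replicate 2 and 4 without JQ1 replicate 3 or the third JQ1 libraries; falls: 3 without DMSO replicate 1). Of receptor tyrosine kinase and MAPK feedback genes 6 of 28 (21.4%) rose and 7 of 28 (25%) fell. FGF2, basic fibroblast growth factor, was at 181, 165 and 175 CPM under DMSO and 105, 105 and 101 CPM under JQ1 (log2 -0.74), and the phosphatase DUSP10 (log2 -0.69) and the feedback inhibitor SPRED2 (log2 -0.81) fell. DUSP6, a phosphatase of ERK, rose (log2 1.42), but 40.5% of its exons lie over those of other genes. Rises on this list numbered 9 without DMSO replicate 2, 3 without JQ1 replicate 1, JQ1 replicate 2 or scaling factors, 4 without JQ1 replicate 3 and 2 without the third JQ1 libraries.

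HIF pathway genes rose in 14 of 33 (42.4%) cases and fell in 4 of 33 (12.1%) (median log2 0.22, or 0.41 without DMSO replicate 2 and 0.12 without scaling factors), in cells that carry VHL. Not all of these rises were free of overlap between the groups. In VHL-negative cells 13 genes of the list rose and 3 fell (median log2 0.31), so the rises were not particular to cells with VHL. In VHL-positive cells rises numbered 14 without DMSO replicate 2, 13 without JQ1 replicate 3 and 11 without the third JQ1 libraries. VHL itself is 1 of the 14 rises in VHL-positive cells, and both HIF1A and EPAS1, the alpha subunits, rose. ADM, the vasodilator adrenomedullin, was at 6.72, 5.31 and 6.41 CPM under DMSO and 16.3, 16 and 15.8 CPM under JQ1 (log2 1.38, adjusted p = 6.88e-06). KDM3A, a histone demethylase induced by hypoxia, was at 69, 56.8 and 66.9 CPM under DMSO and 150.0, 123 and 127 CPM under JQ1 (log2 1.05). BNIP3 and BNIP3L, receptors of mitophagy, rose (log2 0.84 and 1.22). The 4 falls were LOX and CAV1, given above, VEGFA and PFKFB3. In glycolysis 14 of 35 (40%) rose and 4 of 35 (11.4%) fell. PKM, pyruvate kinase, was at 2488, 2852 and 2903 CPM under DMSO and 5552, 4853 and 5017 CPM under JQ1 (log2 0.90, adjusted p = 0.00178). ALDOC, an aldolase, was at 6.98, 3.19 and 9.51 CPM under DMSO and 19.8, 18.6 and 18.2 CPM under JQ1 (log2 1.51). PDK3, a pyruvate dehydrogenase kinase, was at 9.79, 8.46 and 9.12 CPM under DMSO and 19, 15.8 and 17.3 CPM under JQ1 (log2 0.93). SLC2A2, the low-affinity glucose transporter GLUT2, fell from 4.93, 5.19 and 4.88 to 0.4, 0.243 and 0.459 CPM (log2 change -3.77, SE 0.303, adjusted p = 4.89e-07), while SLC2A1 and SLC2A3 did not pass. ENO3, the muscle enolase, fell (log2 -1.35), as did PFKFB2 and PFKFB3. Rises of glycolysis genes numbered 14 without DMSO replicate 2 and 10 without JQ1 replicate 3 or the third JQ1 libraries.

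Enzymes of lipid use and of cholesterol synthesis rose far more often than they fell. Of the fatty acid oxidation genes 13 of 27 (48.1%) rose and 1, DECR1, fell, or none without any 1 library other than DMSO replicate 2 and without the third JQ1 libraries (median log2 0.28, or 0.43 without DMSO replicate 1 and 0.16 without scaling factors). ETFDH, which passes electrons from fatty acids to the respiratory chain, was at 7.96, 6.49 and 7.11 CPM under DMSO and 22.1, 20.2 and 18.9 CPM under JQ1 (log2 change 1.5, SE 0.142, adjusted p = 2.07e-06). ACADVL, the mitochondrial dehydrogenase of very long chains, was at 127, 167 and 165 CPM under DMSO and 229, 220.0 and 224 CPM under JQ1 (log2 0.55). CPT1A, the gate of entry into mitochondria, did not pass. Rises numbered 9 without DMSO replicate 2 or the third JQ1 libraries, 7 without JQ1 replicate 1, 10 without JQ1 replicate 3 and 8 without scaling factors. Of the cholesterol genes 11 of 28 (39.3%) rose and 1, NPC1, fell, which did not pass without the third JQ1 libraries (median log2 0.32, or 0.20 without scaling factors); rises numbered 10 without DMSO replicate 2 or JQ1 replicate 3 and 8 without the third JQ1 libraries. TM7SF2, a sterol reductase, was at 10.6, 5.19 and 11.8 CPM under DMSO and 30.6, 33.4 and 33.1 CPM under JQ1 (log2 1.80, adjusted p = 2.67e-05). IDI1, an isomerase of isoprenoids, was at 45.8, 38.4 and 45.1 CPM under DMSO and 83.9, 69.8 and 79.3 CPM under JQ1 (log2 0.85). INSIG1, the sterol sensor that retains SCAP, was at 68.6, 88.1 and 89.4 CPM under DMSO and 131, 136 and 141 CPM under JQ1 (log2 0.73), and MYLIP, which marks the LDL receptor for degradation, rose (log2 1.40). HMGCS1, an early enzyme of the pathway, did not pass.

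For triglycerides and droplets, DGAT1, which makes triglyceride from diacylglycerol, was at 20.9, 22.5 and 28.6 CPM under DMSO and 75.2, 67.2 and 75.4 CPM under JQ1 (log2 change 1.60, SE 0.151, adjusted p = 2.1e-06). PNPLA2, the lipase ATGL that breaks it down, was at 50.3, 43.3 and 66.2 CPM under DMSO and 119.9, 159.6 and 149.8 CPM under JQ1 (log2 change 1.42, SE 0.186, adjusted p = 3.72e-05). Both rose in every JQ1 library. PNPLA3, a related hydrolase, was at 5.84, 4.41 and 5.51 CPM under DMSO and 3.06, 2.79 and 3.56 CPM under JQ1 (log2 -0.75) and fell. ACACB, the acetyl-CoA carboxylase of mitochondria (log2 1.15), and the desaturase relative FADS3 (log2 0.98) rose, while AGPAT3, an acyltransferase of phospholipids (log2 -0.83), and ACSL5, an acyl-CoA synthetase (log2 -2.18), fell. Of the synthesis and uptake list 11 of 37 (29.7%) rose and 5 of 37 (13.5%) fell; rises numbered 12 without DMSO replicate 2, 11 without JQ1 replicate 3 and 10 without the third JQ1 libraries, and falls 3 without DMSO replicate 1 or JQ1 replicate 2 and 2 without DMSO replicate 2, JQ1 replicate 1, JQ1 replicate 3 or the third JQ1 libraries. Of the droplet proteins and lipases only 16 of 25 listed genes could be tested; 4 of 16 (25%) rose, PNPLA2, LIPA, FITM2 and RAB18, and 2 of 16 (12.5%) fell, PNPLA3 and SPART (SPART not without the third JQ1 libraries (adjusted p = 0.0655)). FITM2 (log2 0.39) did not pass without DMSO replicate 1 (adjusted p = 0.0652), DMSO replicate 2 (adjusted p = 0.079), JQ1 replicate 2 (adjusted p = 0.0573), JQ1 replicate 3 (adjusted p = 0.148) and the third JQ1 libraries (adjusted p = 0.194), and RAB18 (log2 0.38) without any 1 of the 6 libraries. Rises of droplet genes numbered 1 without DMSO replicate 1, DMSO replicate 2, JQ1 replicate 2, JQ1 replicate 3, the third JQ1 libraries or scaling factors and 2 without DMSO replicate 3 or JQ1 replicate 1.

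Lysosome genes rose widely by small steps: 18 of 42 (42.9%) rose and 3 of 42 (7.14%) fell (median log2 0.43). NEU1, a sialidase, was at 207, 117 and 227 CPM under DMSO and 412, 417 and 408 CPM under JQ1 (log2 1.17, adjusted p = 0.000488), with DMSO replicate 2 the lowest. ASAH1, acid ceramidase, was at 95.1, 74.7 and 91 CPM under DMSO and 167, 146 and 146 CPM under JQ1 (log2 0.82). ARSA, a sulfatase, was at 15.2, 13.7 and 17.9 CPM under DMSO and 25.1, 26.8 and 25.8 CPM under JQ1 (log2 0.73). The cathepsins CTSA, CTSB, CTSK and CTSL and the membrane protein LAMP1 also rose. TFEB, a transcription factor of lysosome genes, was at 6.5, 6.69 and 6.44 CPM under DMSO and 1.82, 3.04 and 4.25 CPM under JQ1 (log2 -1.13, adjusted p = 0.00202) and fell, as did its relative MITF. Rises numbered 14 without DMSO replicate 2, 12 without JQ1 replicate 3 and 6 without the third JQ1 libraries, while the median stayed near its value (0.45 in the last of these fits); falls numbered 1 there. Of the iron genes FTL, NCOA4 and ACO1 rose and SLC11A2 and HMOX1 fell, of 14 tested; NCOA4 (log2 0.53) lost its call without DMSO replicate 1 (adjusted p = 0.0621), DMSO replicate 2 (adjusted p = 0.107), JQ1 replicate 1 (adjusted p = 0.0848), JQ1 replicate 2 (adjusted p = 0.0556), JQ1 replicate 3 (adjusted p = 0.0748) and the third JQ1 libraries (adjusted p = 0.103).

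Stress responses gave mixed counts. Of ATF4 targets 8 of 24 (33.3%) fell and 2, CEBPB and PPP1R15A, rose, or 1 without DMSO replicate 1, JQ1 replicate 2, JQ1 replicate 3, the third JQ1 libraries or scaling factors (median log2 -0.25, or -0.07 without DMSO replicate 2). TRIB3, a pseudokinase induced by ATF4, was at 81.4, 83.8 and 87.4 CPM under DMSO and 41.4, 40.6 and 38.6 CPM under JQ1 (log2 change -1.07, SE 0.133, adjusted p = 2.58e-05). PPP1R15A (GADD34), which reverses the block of translation, rose from 66.2, 121 and 92.7 to 144, 197 and 169.9 CPM (log2 0.87). Falls numbered 6 without DMSO replicate 2, 4 without JQ1 replicate 1 or the third JQ1 libraries and 5 without JQ1 replicate 2 or JQ1 replicate 3. Of the chaperones of the endoplasmic reticulum and heat shock 4 of 35 (11.4%) rose and 4 of 35 (11.4%) fell, fewer than among all genes; rises numbered 1 without DMSO replicate 1, DMSO replicate 3, JQ1 replicate 1 or the third JQ1 libraries, 6 without DMSO replicate 2 and 2 without JQ1 replicate 3 or scaling factors, and falls 4 without DMSO replicate 2 or JQ1 replicate 3, 2 without the third JQ1 libraries and 10 without scaling factors. XBP1, a factor of the unfolded protein response, was at 69.2, 79.3 and 72.8 CPM under DMSO and 38.6, 33.8 and 36.8 CPM under JQ1 (log2 -1.02) and fell. Its activator ERN1 (IRE1) was at 12.4, 14 and 15.7 CPM under DMSO and 19.7, 20.9 and 22.4 CPM under JQ1 (log2 0.58) and rose. TP53I3, a quinone oxidoreductase, was at 8.29, 6.49 and 9.27 CPM under DMSO and 30.3, 29.2 and 29.3 CPM under JQ1 (log2 change 1.88, SE 0.157, adjusted p = 6.46e-07). SESN3, a sestrin that restrains mTORC1, was at 0.95, 0.629 and 1.72 CPM under DMSO and 8.81, 8.71 and 9.36 CPM under JQ1 (log2 2.99), and GADD45A and GADD45B rose (log2 1.07 and 1.14). MDM2, DDB2 and PPM1D fell. Of the BCL2 family and death receptors 6 of 25 (24%) rose and 5 of 25 (20%) fell. TNFSF10, the death ligand TRAIL, was at 47.6, 36.8 and 44 CPM under DMSO and 17.5, 22.8 and 18.4 CPM under JQ1 (log2 -1.13), FAS fell (log2 -0.92), and MCL1, an antiapoptotic protein, rose by log2 0.46 (adjusted p = 0.00671; 0.0612 without the third JQ1 libraries). Rises in this family numbered 5 without DMSO replicate 2, 4 without JQ1 replicate 3, 2 without the third JQ1 libraries and 3 without scaling factors, and falls 3 without DMSO replicate 2, JQ1 replicate 2 or JQ1 replicate 3 and 2 without the third JQ1 libraries.

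Some groups changed little or hold near-identical genes. Of 79 cytosolic ribosomal protein genes tested 7 rose (8.86%) and 2 fell (2.53%), below the shares of all genes, with a median of log2 0.24, or 0.13 without scaling factors. RPL12 was at 136, 156 and 172 CPM under DMSO and 273, 254 and 253 CPM under JQ1 (log2 0.75). Many processed copies share their reads. Falls numbered 1 without DMSO replicate 1, JQ1 replicate 1, JQ1 replicate 3 or the third JQ1 libraries and 5 without scaling factors, and rises numbered 2 without DMSO replicate 2, DMSO replicate 3 or JQ1 replicate 3, 1 without JQ1 replicate 1 or the third JQ1 libraries and 3 without scaling factors, or 17 when only the 6 VHL-positive libraries were fitted. Of 48 replication-dependent histone genes tested 3 rose and 8 fell; these genes are near-identical copies with short RNAs, and falls numbered 13 without DMSO replicate 1, 3 without DMSO replicate 2, 4 without DMSO replicate 3, 2 without JQ1 replicate 2, JQ1 replicate 3 or the third JQ1 libraries and 14 without scaling factors. Among keratins and other structural proteins 5 of 14 (35.7%) fell, FLG, FLG2, LMNB1, GFAP and KRT80, and KRT19 alone rose (2 genes rose without DMSO replicate 2, DMSO replicate 3, JQ1 replicate 3 or the third JQ1 libraries). KRT19 went from 67.4, 58.5 and 71 to 99.3, 116 and 102 CPM (log2 0.69). FLG2, a neighbour of FLG in the epidermal gene cluster, was at 9.31, 5.31 and 9.48 CPM under DMSO and 1.78, 1.74 and 2.18 CPM under JQ1 (log2 -2.09). Of the long noncoding RNAs listed 7 of 30 (23.3%) rose and 6 of 30 (20%) fell, and rises numbered 5 without DMSO replicate 2 or JQ1 replicate 3 and 4 without DMSO replicate 3, JQ1 replicate 2 or the third JQ1 libraries. CASC15 was at 24.5, 17.5 and 19.7 CPM under DMSO and 6.4, 6.56 and 5.05 CPM under JQ1 (log2 -1.77, adjusted p = 1.2e-06). CYTOR was at 18.8, 26.1 and 20.9 CPM under DMSO and 9.17, 12.1 and 11 CPM under JQ1 (log2 -1.03). MIR210HG, the host of a hypoxia-induced microRNA, was at 2.78, 1.3 and 2.74 CPM under DMSO and 7.02, 5.47 and 6.43 CPM under JQ1 (log2 1.46).

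**Figure D4:**
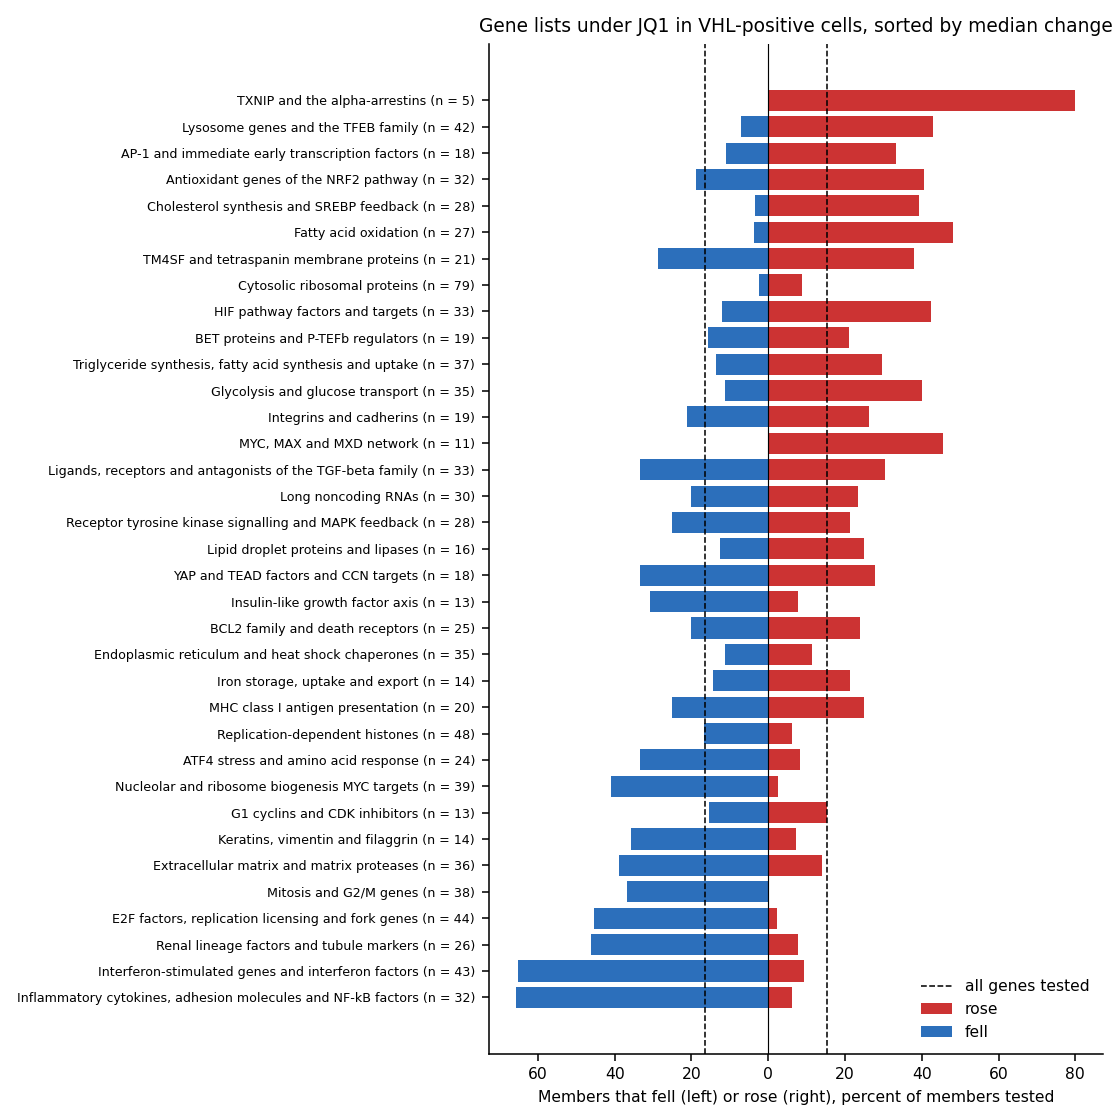
Share of tested members (percent, x axis) of each gene list that rose (red, to the right) or fell (blue, to the left) with JQ1 in VHL-positive cells, sorted by median log2 fold change, with the number tested in brackets; dashed lines give the shares of all genes tested (15.3% and 16.5%). The inflammatory list (65.6% fell) and the interferon list (65.1% fell) stand at the bottom, and the alpha-arrestins (80% of 5 rose) at the top.

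By gene type, protein-coding genes rose in 20% and fell in 18.8% of 13585 cases. Long intergenic noncoding RNAs leaned to falls, with 8.35% rising and 21.6% falling of 1246, and antisense RNAs too (6.87% and 11.8% of 2024); the strand setting of the counting is not given, so antisense counts may hold reads of the sense gene. Noncoding RNAs from bidirectional promoters leaned the other way, with 22.9% rising and 5.71% falling of only 35. Coding genes that rose and fell differed little in size: the median exon length was 5521 bases for rises, 5214 for falls and 5094 for all coding genes, and the median span 37.0, 36.6 and 33.4 kb.

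VHL-negative cells were compared with the same drug, against their own controls. There 6649 genes passed (32.1%), 14.6% rising and 17.5% falling. Of the 3167 genes that rose in VHL-positive cells 1550 (48.9%) also rose in VHL-negative cells and 17 fell. Of the 3422 that fell, 2012 (58.8%) also fell and 28 rose. The rest did not pass there, which does not show a difference. A test of the difference itself passed for 250 genes (1.21%), 147 (0.71%) with the higher and 103 (0.497%) with the lower effect in VHL-positive cells. It passed for 345 genes without DMSO replicate 2, for 142 without DMSO replicate 3, for 55, 62 and 82 without JQ1 replicates 1, 2 and 3, and for 25 without the third JQ1 libraries. This count thus changed with the libraries kept, and whether fewer replicates alone account for that was not tested. By DESeq2 it passed for 1188 genes, and with no filter on low counts for 1336.

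The 5 largest differences in each direction among well expressed genes, here by the mean of all 12 libraries, are these. LAMA1, a laminin chain, was at 83.4, 91.2 and 100.2 CPM under DMSO and 139, 169.5 and 147 CPM under JQ1 in VHL-positive cells and rose (log2 0.73), while in VHL-negative cells it went from 7.13, 8.4 and 6.99 to 0.854, 1.31 and 0.932 CPM (log2 -2.90; difference log2 change 3.63, SE 0.23, adjusted p = 3.66e-07). GDF15, a stress cytokine, was at 181, 191 and 176 CPM under DMSO and 119, 143 and 119 CPM under JQ1 in VHL-positive cells (log2 -0.53; adjusted p = 0.0563 without the third JQ1 libraries) and fell further in VHL-negative cells (log2 -3.29; difference log2 change 2.76, SE 0.167, adjusted p = 3.44e-07). CALD1, an actin-binding protein, overlapped between the VHL-positive groups (219, 248 and 189.7 CPM under DMSO and 192, 188 and 181 CPM under JQ1) and fell in VHL-negative cells (log2 -1.96; difference log2 1.74). CP, ceruloplasmin, and CRISPLD2, a secreted protein, fell less in VHL-positive (log2 -0.85 and -1.17) than in VHL-negative cells (log2 -2.52 and -2.79). In the other direction, FLG fell in VHL-positive cells, whereas VHL-negative cells had 80.2, 67.9 and 59.1 CPM under DMSO and 60.7, 74.1 and 60.2 CPM under JQ1 (difference log2 change -3.01, SE 0.211, adjusted p = 1.12e-06). VGF, a neuropeptide precursor, and BAHCC1, a chromatin reader, did not pass in VHL-positive cells (log2 0.11 and 0.10) and rose in VHL-negative cells (log2 2.24 and 2.06). HILPDA belongs here, rising by log2 2.35 in VHL-negative cells against log2 0.34 (difference log2 change -2.01, SE 0.191, adjusted p = 6.6e-05). These 9 differences passed in every fit that left out 1 VHL-positive library, and BAHCC1 alone missed the threshold without the third JQ1 libraries (adjusted p = 0.101). NFIC is named by the same rule (difference log2 -2.03, adjusted p = 0.0489), but missed the threshold in all 6 such fits (adjusted p 0.063 to 0.144).

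**Figure D5:**
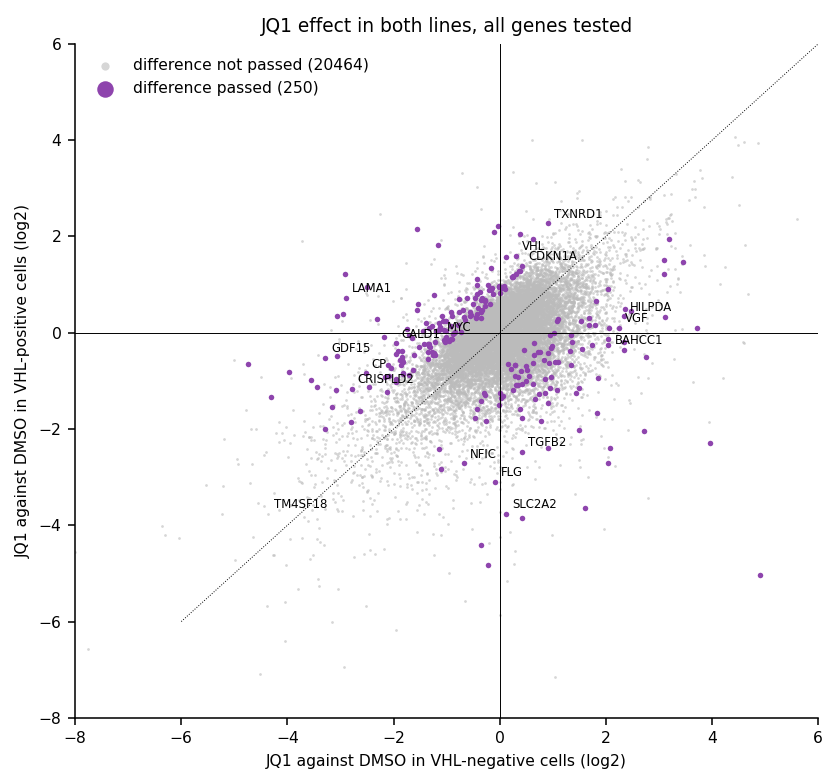
Log2 fold change of JQ1 against DMSO in VHL-negative cells (x axis) and in VHL-positive cells (y axis) for each of the 20714 genes tested; the dotted line marks equal effects, and purple points are the 250 genes whose effects differ by the test of the difference. FLG and SLC2A2 lie low near the vertical axis, LAMA1 lies at the upper left, and TM4SF18 lies near the dotted line.

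The authors' deposited table of this comparison calls 6454 genes at an adjusted p under 0.05, of which 3177 have a positive and 3277 a negative fold change. Of these, 6199 also passed here, all with the same sign. For single genes the authors' deposited table gives log2 1.60 for VHL, -0.08 for MYC, 0.34 for HILPDA and -3.76 for TM4SF18.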

How the data were processed

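Per the submitters' processing notes, the build was GRCh38 and the tools were STAR 2.7.8, featureCounts, Subread 2.0.3 and DESeq2 1.30.1; their roles, the annotation release and the strand setting are not given in the sources used here. Total RNA was depleted of ribosomal RNA before sequencing, per the labels' protocols. The authors deposited raw counts per Ensembl gene for 12 libraries and, per line, a table with, per the file headers, log2 fold changes with standard errors, a test score (stat), p-values and a mean of scaled counts; that mean and the score were not used. Samples were grouped by their labels.

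Raw counts were fitted with edgeR 4.0.16 (R 4.3.3; TMM scaling, filterByExpr, quasi-likelihood test, Benjamini-Hochberg adjustment over all 20714 genes kept), with all 12 libraries in 1 model and contrasts for JQ1 in each line and for their difference. The fit was tested on simulated data. Levels are CPM on scaled library sizes; summed markers are CPM on plain totals. Symbols and positions came from GENCODE 29 on GRCh38 (58395 of 60663 IDs matched; 42027 had a symbol). Genes were named by rule: VHL, MYC, HILPDA and BET genes; the 12 largest rises and falls with 4 log2 CPM or more on average and no overlap of libraries; up to 5 called members with the smallest p of each of 36 lists, 1 of which is not reported here; the 5 largest differences between the lines in each direction; and the 8 largest changes in CPM each way. Other genes are named as members of small counts, after their values were seen. The comparison, lists and tests were chosen with earlier results of these data known. Alternatives were other scaling, filters, DESeq2 1.42.0, fewer libraries or genes, and the replicate number as a block.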

Additional observations from a re-analysis of the deposited data

Results flagged for a closer look

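The genes given here had a JQ1 effect in VHL-positive cells that differed from that in VHL-negative cells by the test of the difference itself (edgeR's quasi-likelihood test, adjusted p under 0.05, 1.21% of all genes tested), and each value is the log2 effect in VHL-positive cells minus that in VHL-negative cells. Higher in VHL-positive cells were the introduced suppressor VHL (1.29), the laminin LAMA1 (3.63), the cytokine GDF15 (2.76), the stress factor NUPR1 (1.89), CALD1 (1.74), ceruloplasmin CP (1.67), CRISPLD2 (1.61), TXNRD1 (1.37), tissue factor F3 (1.33), fibronectin FN1 (1.19), INSIG1 (1.06), CDKN1A (0.95) and FADS3 (0.90). Lower were SLC2A2 (-3.90), FLG (-3.01), TGFB2 (-2.90), VGF (-2.13), NFIC (-2.03), HILPDA (-2.01), BAHCC1 (-1.96), SLITRK5 (-1.72), CDT1 (-1.38) and CDH6 (-1.0). These were among the genes named, so they are not a sample of all differences.

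VHL rose by log2 1.59 in VHL-positive cells against 0.31 in VHL-negative cells (adjusted p = 0.0674), and the difference missed the threshold without the third JQ1 libraries (adjusted p = 0.0694). Introduced and endogenous transcripts were not told apart, and the part of the vector in this difference was not tested. TGFB2 fell in VHL-positive cells only (VHL-negative log2 0.42, adjusted p = 0.459), and its difference was lost without the third JQ1 libraries (adjusted p = 0.165). TXNRD1 rose in both lines, by log2 2.27 and 0.90, and its difference was lost without DMSO replicate 1 (adjusted p = 0.0542), JQ1 replicate 1 (adjusted p = 0.104), JQ1 replicate 2 (adjusted p = 0.0615), JQ1 replicate 3 (adjusted p = 0.0762) and the third JQ1 libraries (adjusted p = 0.23). The difference of SLITRK5 was lost without JQ1 replicate 1 (adjusted p = 0.0596) and the third JQ1 libraries (adjusted p = 0.125). That of CDH6 was lost without DMSO replicate 1 (adjusted p = 0.0584), DMSO replicate 3 (adjusted p = 0.05), JQ1 replicate 1 (adjusted p = 0.138), JQ1 replicate 2 (adjusted p = 0.11), JQ1 replicate 3 (adjusted p = 0.134) and the third JQ1 libraries (adjusted p = 0.29), and that of FADS3 without DMSO replicate 1 (adjusted p = 0.0688), DMSO replicate 2 (adjusted p = 0.0522), JQ1 replicate 1 (adjusted p = 0.103), JQ1 replicate 2 (adjusted p = 0.11), JQ1 replicate 3 (adjusted p = 0.108) and the third JQ1 libraries (adjusted p = 0.287). Those of CDT1, CDKN1A, INSIG1, NUPR1 and FN1 were lost without any 1 of the JQ1 libraries (adjusted p without JQ1 replicate 1 of 0.0709, 0.0743, 0.0596, 0.0525 and 0.0932, in this order), that of FN1 also without DMSO replicate 3 (adjusted p = 0.0566), and that of NFIC without any 1 of the 6 libraries. The differences of SLC2A2, F3, LAMA1, GDF15, FLG, VGF, HILPDA, CALD1, CP and CRISPLD2 passed in all 6 such fits and without the third JQ1 libraries.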

How the results depend on the processing

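The edgeR counts of rises and falls (3167 and 3422) stayed within 1.5 times under all alternatives run, with these exceptions. Scaled by total counts alone, 2069 genes rose. Without the third JQ1 libraries, chosen after seeing the data, 2033 rose and 2127 fell. With coding genes alone, also chosen after seeing the data, 538 rose and 1163 fell at least 2-fold, of fewer genes tested. Leaving out 1 VHL-positive library gave 2328 to 2817 rises and 2382 to 3122 falls, and 55 to 345 differences between the lines (250 with all libraries), the latter extremes without JQ1 replicate 1 and without DMSO replicate 2, respectively. The difference between the lines passed for 1188 genes by DESeq2, for 1336 with no filter on low counts and for 25 without the third JQ1 libraries; the cause was not tested. For MYC, which did not pass, the log2 change ran from -0.27 (without DMSO replicate 1) to 0.16 (without DMSO replicate 2, adjusted p = 0.613). For BAHCC1, which did not pass either, it was -0.012 by total counts alone and ran from -0.031 (without DMSO replicate 1) to 0.26 (without JQ1 replicate 1), with -0.02 without JQ1 replicate 2.

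With the replicate number as a block, 3094 genes rose, 3329 fell, 856 rose and 1730 fell at least 2-fold, and 272 differed between the lines. Deviations from the group means of same-numbered DMSO and JQ1 libraries correlated at 0.014, -0.038 and 0.018 over 20714 genes. Not every library correlated best with its own number, so the values showed no pairing by number. With 3 libraries a side and genes of low count included, they cannot exclude that same-numbered libraries shared a culture or batch. Of the 202 genes named, calls were lost for 2 with this block, for 0 by DESeq2, for 7 by total counts alone, for 8 to 16 without 1 library and for 26 without the third JQ1 libraries. Counts of list members moved by over 1.5 times in 32 of 72 cases without the third JQ1 libraries, in 11 to 20 of 72 without 1 library, in 19 of 72 by total counts alone and in 2 of 72 with the block. Depth was lowest in JQ1 replicate 3 (18468751 counts), and of the 25 lipid droplet genes listed 16 had counts high enough to be tested.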
